A study of Mus musculus with 6 samples.

Results

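Resident macrophages of skeletal muscle are described here through 10 genes, 7 macrophage markers and the 3 chains of complement C1q. The markers are Adgre1, Cd68, Csf1r, Mrc1, Cd163, Lyz2 and Lyve1, and the chains are encoded by C1qa, C1qb and C1qc. The genes were chosen by name, with earlier results of these data known. All 10 were found among the 54393 mouse genes of the deposited table. RNA sequencing was done on the tibialis anterior (TA), a fast muscle at the front of the lower leg, of adult mice. The WT group had 3 muscles, with sample titles that begin with C57, and the Dock3 KO group had 3 muscles in which Dock3, an activator of the small GTPase Rac, was knocked out. The labels name no other allele and no treatment, and they do not give the sex of the mice, the build of the knockout or whether the muscles of a group came from separate animals, so the p-values measure only the spread between these samples. The comparison asks how transcript levels in adult muscle differ when Dock3 is knocked out.

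Muscle macrophages lie between the fibres and in the connective tissue around them, where they clear debris and take part in repair. Most of those in resting muscle carry scavenger and lectin receptors such as Cd163 and Mrc1, and they depend on signals through the receptor Csf1r. C1q is the recognition part of the classical complement pathway. It is built from an A, a B and a C chain in equal numbers, each with a collagen-like stalk and a globular head, and tissue macrophages are a main source of its transcripts.

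The labels were checked first. The level of Dock3 was 169, 161 and 118 normalized counts in WT muscles 1, 3 and 4 and 22.4, 1.78 and 1.54 in Dock3 KO muscles 1, 2 and 3. Dock3 KO replicate 1 had more Dock3 signal than the other Dock3 KO samples, but less than any WT sample. The cause was not tested. The normalized counts summed to between 23520223 and 33393950 per sample. Gm42418 and Lars2 are a pair of genes with very high values, and which RNA gave their reads was not tested. Dock3 KO replicates 1 and 2 stood apart from the other libraries in the share of this pair. It took 17.9% and 20.3% of their sums against 3.00% to 3.64% in the other 4 samples. Read from the most frequent low value, 1 read was worth 1.40 and 1.52 normalized counts in those libraries and 0.775 to 0.886 in the others. The values are therefore less finely resolved in Dock3 KO replicates 1 and 2, and results are also given without them.

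None of the 10 genes passed the test for a difference between genotypes. The test was limma on log2(normalized count + 1) over the 16031 genes with a mean of at least 10, with a threshold of 0.05 on the Benjamini-Hochberg adjusted p, and it called 1.03% of all genes tested. At an unadjusted p under 0.05, 1 of the 10 genes was counted, Lyz2, against 10.5% of all genes tested. The Dock3 KO mean was below the WT mean for 9 of the 10, Cd163 being the exception, and 51.0% of all genes tested had a difference below 0. The median log2 difference was -0.24 over the 10 genes and -0.01 over all genes tested. The groups did not overlap, with Dock3 KO lower, for C1qa and Lyz2, which is 2 of 10 genes, while 8.65% of all genes tested did so. It was 0 of 10 with Dock3 KO higher, against 7.6% of all genes tested. Csf1r overlaps Hmgxb3 on the opposite strand and Mir6983 on its own, and Mrc1 overlaps Mir511. Antisense genes overlap several list genes named below, among them Maf, Lrp1, Cd34, Pi16 and Col15a1, and their reads cannot be told apart where strand was not used in counting. In whole muscle RNA, fewer macrophages, less of a transcript per macrophage and a change in other cells that carry it cannot be told apart.

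Adgre1 encodes F4/80, the surface protein most used to stain mouse macrophages. Its level was 185, 225 and 319 normalized counts in WT muscles 1, 3 and 4 and 209.8, 200.3 and 185 in Dock3 KO muscles 1, 2 and 3. WT replicate 4 was alone in its high value, and the other 5 samples lay close together. The log2 difference was -0.26 with a 95% interval of -0.74 to 0.23. Csf1r, the receptor for the growth factors Csf1 and Il34 that macrophages need to survive, was listed at 1429, 1248 and 966 in the WT muscles and at 1096, 686 and 1042 in the Dock3 KO muscles. Its groups overlapped, and WT replicate 4, the highest sample for Adgre1, was here the lowest of the WT samples. The log2 difference of Csf1r was -0.38, with an interval of -0.84 to 0.08. Cd68, a lysosomal membrane protein of phagocytes, was the least abundant of the markers, at 100.3, 64.9 and 131 in WT and 94.4, 79.3 and 48.8 in the Dock3 KO muscles. Its spread within a group was the widest, with a coefficient of variation of 33.4% in WT and 31.3% in Dock3 KO. Its log2 difference of -0.40 had an interval of -1.15 to 0.35, so that a change of up to 54.9% lower or 27.2% higher lay within it.

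Mrc1 encodes the mannose receptor CD206, which takes up glycoproteins. Its level was 1052, 1021 and 1094 normalized counts in the WT muscles and 1131, 981 and 826 in the Dock3 KO muscles. The WT samples varied by only 3.45% (coefficient of variation), the Dock3 KO samples by 15.6%, and the highest and the lowest of the 6 values were both Dock3 KO. The log2 difference was -0.12, with an interval of -0.44 to 0.20. Cd163, a scavenger receptor for haptoglobin-haemoglobin complexes, was listed at 721, 592 and 741 in the WT muscles and at 584, 901 and 786 in the Dock3 KO muscles. It was the marker with a higher mean in Dock3 KO, at 757 ± 161 against 685 ± 80.6 (SD, n = 3 each), a difference smaller than the spread of the Dock3 KO samples, and Dock3 KO replicate 1 was the lowest of all. Its log2 difference was 0.13, with an interval of -0.28 to 0.53. It was -0.01 without Dock3 KO replicate 2.

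Lyve1 encodes a hyaluronan receptor of lymphatic endothelium that a perivascular group of resident macrophages also carries. Its level was 358, 322 and 283 normalized counts in the WT muscles and 217, 318 and 317 in the Dock3 KO muscles, with Dock3 KO replicate 1 below the other 5 samples. The log2 difference was -0.19, with an interval of -0.63 to 0.24. The lymphatic vessel genes on a list of 6 (Prox1, Flt4, Pdpn, Ccl21a, Mmrn1 and Reln) had a median log2 difference of -0.40, none of them past the adjusted threshold, and Ccl21a has near-identical copies that make its value uncertain. Their summed level ran from 499 to 961 in the WT muscles and from 453 to 592 in the Dock3 KO muscles, and their part in the Lyve1 values was not tested. Flt4, the receptor for the lymphatic growth factor Vegfc, had the smallest p of that list, at 152 ± 11.8 in WT and 104 ± 19.4 in the Dock3 KO muscles (SD, n = 3 each), with a limma adjusted p of 0.379. Reln had the highest mean of the list over the 6 samples, at 173 against 172 for Pdpn, and that rank rests on WT replicate 1, where Reln stood at 528 against 56.1 to 154 in the other 5 samples.

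**Figure D1:**
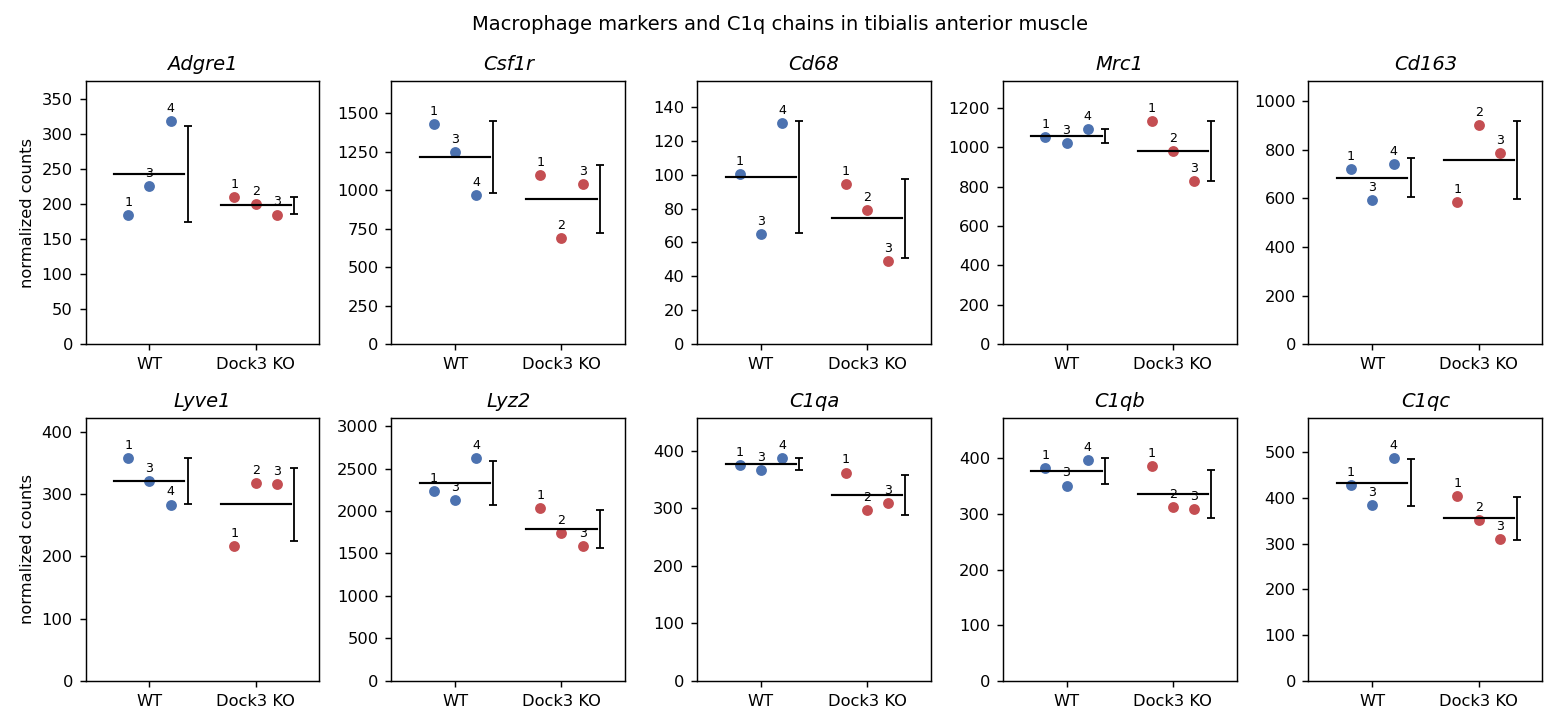
Normalized counts (vertical axes, from 0) of the 10 genes in each sample, WT in blue and Dock3 KO in red, with the replicate number beside each point, the group mean as a line and the SD as a bar (n = 3 each). The groups are apart only for Lyz2 and C1qa, and the Dock3 KO values of these are the lower ones.

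The 3 C1q genes lie side by side on the minus strand of chromosome 4, in the order C1qb, C1qc and C1qa, within 18675 bases (GENCODE M21, GRCm38). C1qb spans chr4:136880129-136886187, C1qc chr4:136889804-136893065 and C1qa chr4:136895917-136898803, and none of them overlaps another annotated gene. The 250 bases before the RefSeq start of C1qb (GRCm38.p6, chr4:136886201-136886450, minus strand) are shown as an example of a promoter of this locus. Capitals mark GAGGAA, a core of the purine-rich boxes that the macrophage factor PU.1 can bind.
C1qb: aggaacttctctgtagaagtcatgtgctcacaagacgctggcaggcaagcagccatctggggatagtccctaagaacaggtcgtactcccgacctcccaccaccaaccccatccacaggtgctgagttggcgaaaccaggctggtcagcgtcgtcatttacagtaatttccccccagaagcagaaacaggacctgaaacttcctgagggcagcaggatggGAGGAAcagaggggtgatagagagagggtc
GAGGAA or its reverse complement TTCCTC occurs in 23.3% of 32851 RefSeq promoters of the same length. Promoters of 6 of the 10 genes were matched (Mrc1, C1qb, C1qc, Cd163, Lyz2 and Cd68), and 4 of these 6 hold it, while the longer GAGGAAGT is in that of C1qc alone, against 2.44% of all promoters. A match of letters is a description and not a binding site.

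The C1q chains were at similar levels in each sample, and their differences between genotypes did not pass the test. C1qa was listed at 375, 367 and 388 normalized counts in the WT muscles and at 362, 297 and 309 in the Dock3 KO muscles. All 3 Dock3 KO values lay below the WT values, though Dock3 KO replicate 1 by a small margin. The means were 376 ± 10.5 in WT and 322 ± 34.9 in the Dock3 KO muscles (SD, n = 3 each), 14.3% lower, and the log2 difference was -0.23 (standard error 0.15), with a 95% interval of -0.56 to 0.11 and a limma adjusted p of 0.678. C1qb was listed at 382, 351 and 397 in the WT muscles and at 386, 312 and 309 in the Dock3 KO muscles, so that Dock3 KO replicate 1 sat within the WT range and the other Dock3 KO samples below it. C1qc was listed at 428, 384 and 487 in the WT muscles and at 404, 352 and 310.1 in the Dock3 KO muscles, with Dock3 KO replicate 1 again the highest of its group. The log2 differences of C1qb and C1qc were -0.17 (interval -0.52 to 0.18) and -0.29 (interval -0.65 to 0.08).

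The make-up of C1q transcripts was steady. C1qa held 30.5% to 33.3% of the normalized counts of the 3 chains over the 6 samples, C1qb 31.2% to 33.5% and C1qc 33.4% to 38.3%. The ratio of C1qa to C1qb was 0.981, 1.04 and 0.975 in the WT samples and 0.938, 0.952 and 0.999 in the Dock3 KO samples, with an exact two-sided permutation p of 0.3. That of C1qc to C1qb was 1.15 ± 0.0701 in the WT muscles against 1.06 ± 0.0638 in the Dock3 KO muscles (SD, n = 3 each), also at an exact permutation p of 0.3. With 3 against 3 samples the test cannot give a p below 0.1, and each of 5 such values tested was at 0.375 or above after Benjamini-Hochberg adjustment (exact permutation tests). Cd163 to Csf1r and Lyve1 to Mrc1 were also compared. Cd163 per Csf1r ran from 0.475 to 0.767 in the WT muscles and from 0.533 to 1.31 in the Dock3 KO muscles, where replicate 2 held the highest value. Lyve1 per Mrc1 was 0.305 ± 0.0415 in WT and 0.300 ± 0.0984 in the Dock3 KO muscles (SD, n = 3 each).

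A search was made for the genes whose log2 profile over the 6 samples, centred on its own mean, was closest to the mean profile of the 3 C1q genes. Among 11791 other genes with a mean of at least 50, the closest were Katna1, Amigo1, D3Ertd254e, Fbxo38, Sec11c and Psen2, with root mean square differences of 0.044 to 0.054 on the log2 scale. None of these 6 is on a macrophage list used here. Among all 11801 genes, Mrc1 ranked 68, Lyz2 ranked 90, Adgre1 ranked 3109 and Csf1r ranked 6664 in closeness to it, while Cd68, Lyve1 and Cd163 ranked between 7406 and 7952. The profile itself spans only 0.21 above to -0.23 below its mean in log2, so that many genes with small differences come close to it.

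Lyz2 encodes lysozyme M, the bacterial wall-cutting enzyme of macrophages and other myeloid cells, and it was the most abundant of the 10 genes. Its level was 2238, 2124 and 2625 normalized counts in WT muscles 1, 3 and 4 and 2032, 1737 and 1593 in Dock3 KO muscles 1, 2 and 3. The groups did not overlap, the highest Dock3 KO sample being below the lowest WT sample. The means were 2329 ± 263 and 1787 ± 224 (SD, n = 3 each), 23.3% lower in Dock3 KO. The log2 difference was -0.38 (standard error 0.14), with an interval of -0.70 to -0.07, and the limma adjusted p was 0.348. Without Dock3 KO replicates 1 and 2 together it was -0.54, with a limma adjusted p of 0.533, where the lone Dock3 KO sample is assumed to vary like WT.

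Lyz2 has a neighbour of nearly the same sequence, Lyz1, known as the lysozyme of Paneth cells in the gut, and transcripts of the pair match at 95.8% over 1264 aligned bases. Lyz1 was looked at after its values had been seen. The coding sequences, each of 444 bases in 4 exons on the minus strand of chromosome 10, are shown because reads of the pair can be hard to tell apart. They lie within chr10:117288586-117292838 (Lyz1) and chr10:117278124-117282242 (Lyz2) in GENCODE M21. Over the whole length 22 bases differ. The first 240 bases, with the 17 differences among them in capitals, are given below.
Lyz1: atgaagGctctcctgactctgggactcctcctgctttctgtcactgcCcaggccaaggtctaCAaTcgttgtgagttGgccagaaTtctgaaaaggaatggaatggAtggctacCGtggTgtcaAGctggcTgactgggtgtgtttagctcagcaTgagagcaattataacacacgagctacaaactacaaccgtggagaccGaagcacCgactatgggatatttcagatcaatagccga
Lyz2: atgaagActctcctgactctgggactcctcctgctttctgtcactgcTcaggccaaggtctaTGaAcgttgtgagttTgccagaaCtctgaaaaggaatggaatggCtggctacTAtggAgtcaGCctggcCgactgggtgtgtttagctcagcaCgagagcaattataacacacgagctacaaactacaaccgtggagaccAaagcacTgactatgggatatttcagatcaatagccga
The longest stretch without a difference, over the whole coding sequence, is 118 bases. How reads that match both genes were shared out is not given in the sources used here, so the split of the pair is uncertain.

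Lyz1 was listed at 171, 181 and 168 normalized counts in the WT muscles and at 91.55, 63.0 and 42.0 in the Dock3 KO muscles, and the groups were far apart. Its means were 173 ± 6.87 and 65.5 ± 24.9 (SD, n = 3 each), and it fell by 1.46 on the log2 scale (standard error 0.28) at a limma adjusted p of 0.0464. That call passed in 7 of 18 alternative settings, with limma adjusted p-values from 0.00618 to 0.183. Of the fits that left out 1 sample, it passed only where Dock3 KO replicate 1 was omitted (limma adjusted p 0.0169), and the limma adjusted p was 0.113 to 0.183 without any 1 of the other 5 samples. It was 0.0794 without Dock3 KO replicates 1 and 2 (limma). Lyz1 made up 7.10%, 7.86% and 6.02% of the pair in WT and 4.31%, 3.501% and 2.57% in Dock3 KO (exact two-sided permutation p = 0.1, the smallest possible). Summed, the pair stood at 2502 ± 257 in WT and 1853 ± 248 in the Dock3 KO muscles (SD, n = 3 each). That is a log2 difference of -0.44, with an interval of -0.75 to -0.12 and a limma adjusted p of 0.269. Adding Lyz1 to Lyz2 thus left the value of the more abundant gene nearly as it was.

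**Figure D2:**
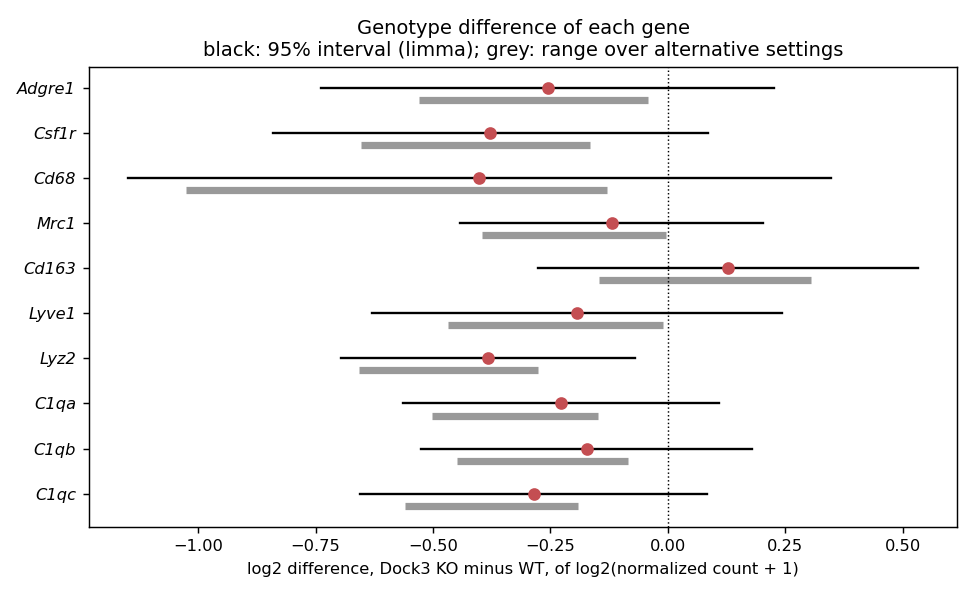
Log2 difference (Dock3 KO minus WT, horizontal axis) of each of the 10 genes as a red point, with its 95% limma interval in black and, in grey, the lowest and highest estimate over 19 alternative settings. Only the interval of Lyz2 leaves out 0, and only Cd163 has an estimate above 0.

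Levels were compared between the genes per kilobase of exonic length. Lyz2 came first, at 1770 ± 199.7 normalized counts per kilobase in WT and 1358 ± 169.9 in the Dock3 KO muscles (SD, n = 3 each), above every value of the next gene. C1qa (362 ± 10.1 in WT) and C1qb (346 ± 21.8 in WT) followed, and their ranges overlapped. C1qc, at 224 ± 26.8 per kilobase in WT, was below them, and over its longest transcript alone, which is 1203 bases of an exonic length of 1931, it matched C1qb. Then came Csf1r, Mrc1, Cd163, Lyve1, Cd68 and Adgre1, from 187 down to 68.2 per kilobase over all 6 samples. Each neighbouring pair from C1qc to Adgre1 overlapped in range over the 6 samples, so that neighbours in this order were not separated, although in WT alone Mrc1 lay above Cd163. Genes further apart were separated: the lowest C1qc, Csf1r, Mrc1 and Cd163 values, the least of them 107 per kilobase, exceeded the highest value of Cd68 (104) and of Adgre1 (98.4). F4/80, the usual antigen for staining, was thus among the least abundant transcripts per kilobase.

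By sample, the highest value of a gene fell in WT replicate 4 for 6 of the 10 genes, and the lowest fell in Dock3 KO replicate 3 for 5 of them. Dock3 KO replicate 3 is not 1 of the libraries with the large Gm42418 and Lars2 share. Without Dock3 KO replicates 1 and 2, 0 of the 10 genes passed the adjusted limma threshold, and 1 of them, Lyz2, had an unadjusted limma p under 0.05 (0.0203). The median log2 difference of the 10 genes was then -0.32. Over all 19 alternative settings, their median minus the median of all genes tested lay between -0.32 and -0.16.

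Genes of macrophage identity on a list of 20 were examined beside the markers. All 20 were tested, 0 passed in either direction, 14 had a difference below 0 and the median log2 difference was -0.20. Maf, the most abundant of them, stood at 3540 ± 390 in WT and 4553 ± 1158 in the Dock3 KO muscles (SD, n = 3 each). Its mean over the 6 samples was 4046, against 65.6 for Spi1 of the same list and 1078 for Csf1r. These values are not adjusted for length, and per kilobase of exonic length they were 491 for Maf, 24.4 for Spi1 and 187 for Csf1r. Which cells of the muscle gave the Maf signal was not tested. The lowest Dock3 KO value of Maf lay above its highest WT value, by a small margin, and its limma adjusted p was 0.565. Cybb, a subunit of the phagocyte oxidase, had a mean of 143 ± 50.3 in Dock3 KO against 229 ± 43.3 in WT (SD, n = 3 each). Fcer1g, an adaptor of Fc receptors, had a mean of 80.2 ± 9.88 in Dock3 KO against 106 ± 12.6 in WT (SD, n = 3 each). The limma adjusted p-values of Cybb and Fcer1g were 0.349 and 0.617. Other genes of the list went the opposite way, and 6 of the 20 had an estimate above 0. Besides Maf, these included Fcgr1 (log2 difference 0.67), Aif1 (0.50), Msr1 (0.32) and Mertk (0.12), each with overlapping groups. Fcgr1 and Aif1 were scarce, averaging 19.9 and 12.1 over the 6 samples. Like Cybb and Fcer1g, they were picked with their values known.

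Of 20 genes of resident macrophages, 1 passed the threshold, Vsig4, and it was lower in Dock3 KO, where 0.586% of all genes tested were called lower. Vsig4 encodes CRIg, a receptor through which resident macrophages take up particles coated with the complement fragment C3b. Its level was 41.3, 28.0 and 31.6 normalized counts in the WT muscles and 4.04, 1.51 and 1.55 in the Dock3 KO muscles, where these values stand for only a few reads. It fell by 3.43 on the log2 scale (standard error 0.59) at a limma adjusted p of 0.0236. The call passed in 9 of 17 alternative settings, with limma adjusted p-values from 0.0105 to 0.286, while the estimate stayed between -3.90 and -1.81. Of the fits that left out 1 sample, it passed only where Dock3 KO replicate 1 was omitted (limma adjusted p 0.0219), and the limma adjusted p was 0.0582 to 0.119 without any 1 of the other 5 samples. Without Dock3 KO replicates 1 and 2 it was -3.75, with a limma adjusted p of 0.117. The list median was -0.12, and Gas6, its most abundant gene and a ligand of the receptors Mertk and Axl, stood at 1838 in WT and 1824 in Dock3 KO on average. The list had 12 genes with a difference below 0 and 8 above. With Dock3 KO lower, 4 of the 20 did not overlap between groups, against 8.65% of all genes tested. These were Vsig4, Cbr2, F13a1 and Hpgds. With Dock3 KO higher it was 1 of 20, Cd209d, against 7.6% of all genes tested. Means were 792 ± 103.8 and 659 ± 25.5 for Cbr2 and 1208 ± 45.2 and 1050 ± 84.9 for F13a1 (SD, n = 3 each, WT first). Those of Hpgds were 66.4 ± 15.0 and 33.2 ± 15.8 (SD, n = 3 each). Their limma adjusted p-values were 0.589, 0.638 and 0.352.

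The Cd209 genes, which encode C-type lectins related to DC-SIGN, lie together on chromosome 8, and 3 of them (Cd209d, Cd209f and Cd209g) were on the resident list and Cd209a on the dendritic list. The other Cd209 genes were looked at after the values had been seen. Cd209b, known as SIGN-R1, was listed at 130.3, 173 and 159 normalized counts in the WT muscles and at 44.5, 38.3 and 40.1 in the Dock3 KO muscles. It fell by 1.88 on the log2 scale (standard error 0.23) at a limma adjusted p of 0.00319, and it passed in 15 of 18 alternative settings, with limma adjusted p-values from 0.00105 to 0.132. Without Dock3 KO replicates 1 and 2 its estimate was -1.90, with a limma adjusted p of 0.132. Cd209a went the other way, listed at 0, 9.60 and 5.16 in the WT muscles and at 54.2, 72.2 and 54.0 in the Dock3 KO muscles. Its log2 difference was 3.91 with an interval of 2.14 to 5.69 and a limma adjusted p of 0.0573, so that it narrowly missed the threshold, and it passed in 6 of 17 alternative settings, with limma adjusted p-values from 0.00659 to 0.581. Cd209c stood at 40.8 and 35.1 on average in WT and Dock3 KO muscles, Cd209d at 40.3 and 62.2, Cd209f at 97.6 and 141 and Cd209g at 102 and 62.7, none of them past the threshold. Cd209e stood at 7.36 and 5.12 and was too low to test. Cd209g shares a stretch of 446 bases at 99.6% identity with Cd209f, so that the split between them is uncertain. The sum of the 7 genes was 384, 521 and 434 in WT and 455, 407 and 359 in the Dock3 KO muscles, and these groups overlapped.

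**Figure D3:**
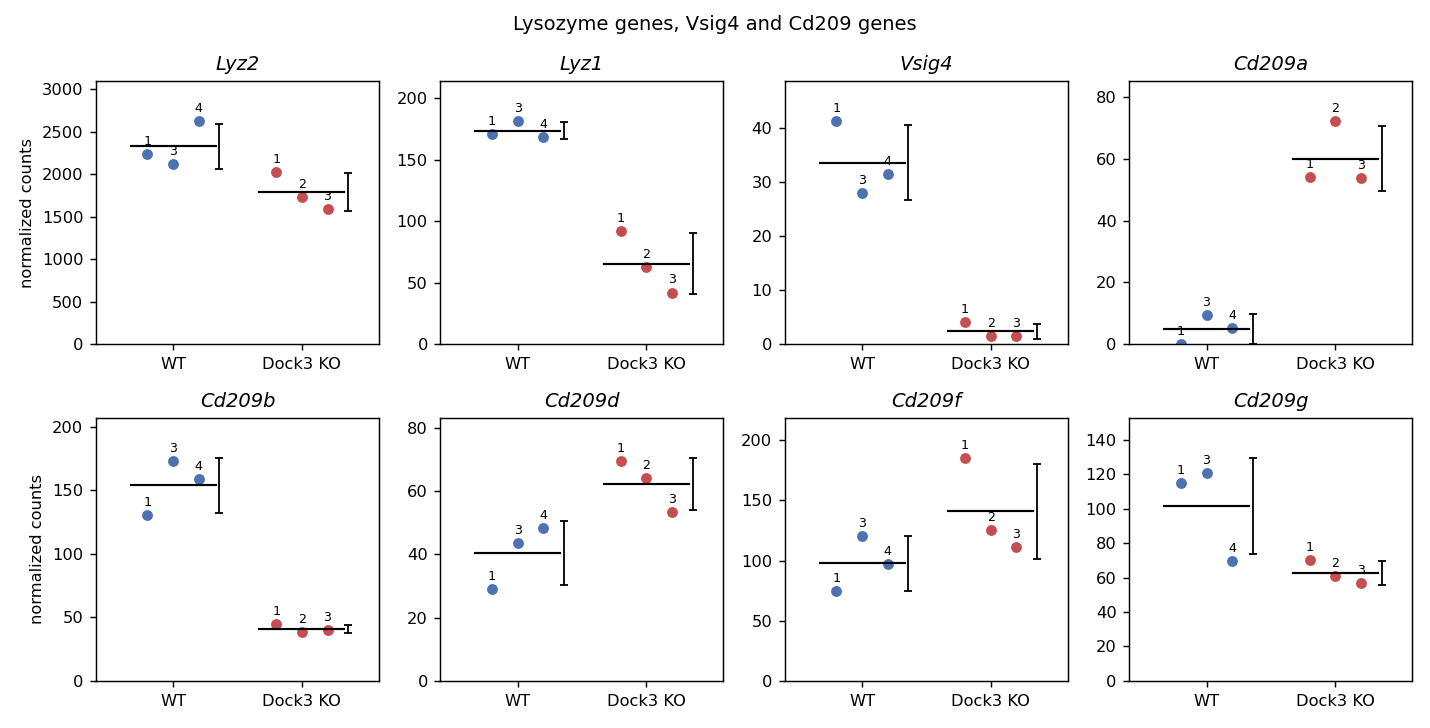
Normalized counts (vertical axes, from 0) of Lyz2, Lyz1, Vsig4 and 5 Cd209 genes in each sample, drawn as for the markers, with mean lines and SD bars (n = 3 each). Lyz1, Vsig4 and Cd209b are low in all 3 Dock3 KO samples, and Cd209a is high in all 3.

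Complement genes other than C1q were measured on a list of 20, of which 19 were tested and 0 passed, with a median log2 difference of -0.06. The proteases C1ra and C1s1, which C1q carries, stood at 591 and 1243 normalized counts in the WT muscles and at 568 and 1186 in Dock3 KO on average. C3, the central component, stood at 4350 ± 945 in WT and 3444 ± 271 in the Dock3 KO muscles (SD, n = 3 each), with WT replicate 4 the highest. Cd59a, which blocks the membrane attack complex, had the smallest p of the list, at 540 ± 131 and 337 ± 63.8 (SD, n = 3 each) and a limma adjusted p of 0.252. Lrp1, a clearance receptor, had the highest mean normalized counts of the list, at 7219 in WT and 8476 in Dock3 KO. Per kilobase of exonic length Serping1 stood above it, at 1266 against 443 over the 6 samples. With Dock3 KO lower, 3 of the 19 genes did not overlap between groups, against 8.65% of all genes tested. These were Cd59a, Cfp (properdin) and the receptor C3ar1. Cfp averaged 138 in WT against 110 in Dock3 KO, and C3ar1 142 against 107, without passing. With Dock3 KO higher it was 0 of 19, against 7.6% of all genes tested.

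Genes of lysosomes and phagocytosis included 20 tested genes, of which 0 passed and 16 had a difference below 0, with a median of -0.08. Ctsd, the aspartic protease cathepsin D, was listed at 9084, 9167 and 8942 in the WT muscles and at 6764, 8036 and 6545 in the Dock3 KO muscles. Its groups did not overlap, and its log2 difference was -0.36 with an interval of -0.64 to -0.07 and a limma adjusted p of 0.326. Lgmn, the protease legumain, stood at 567 ± 27.6 and 437 ± 13.5 (SD, n = 3 each) with a limma adjusted p of 0.327, and Psap, the most abundant, at 10780 and 10268 on average.

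Monocyte and recruitment genes numbered 17, of which 9 were tested and 0 passed, with a median of 0.07. Ccr2, the receptor that brings monocytes out of the blood, was listed at 262, 130.4 and 212 in the WT muscles and at 151, 84.6 and 101.4 in the Dock3 KO muscles, with a log2 difference of -0.82 and a limma adjusted p of 0.348. The growth factors Csf1 and Il34 averaged 525 and 74.9 in WT and 434 and 70.0 in the Dock3 KO muscles. Nr4a1, an immediate early gene also required by patrolling monocytes, was the most abundant and had the smallest p, at 1798, 1659 and 1755 in WT and 3062, 4087 and 2159 in the Dock3 KO muscles, with a limma adjusted p of 0.148, which was 0.0252 without Dock3 KO replicate 3 and up to 0.898 in the other alternatives. The chemokine Ccl2 was at or below 17.7 in every sample. Of 20 activation genes, 15 were tested and 0 passed, with a median of -0.13. Spp1 (osteopontin) had the smallest p, at 26.4, 71.8 and 31.8 in WT and 30.0, 16.4 and 8.61 in the Dock3 KO muscles (limma adjusted p 0.467), and Cd9, the most abundant, averaged 707 and 745.

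Markers of other cells were measured to see what else the muscle RNA held. Neutrophil genes were near the floor, with 2 of 10 tested, Csf3r and Cxcr2, a list sum of 54.4 to 82.8 over the 6 samples and Ly6g listed at 0 in all of them. For Cxcr2 the limma adjusted p was 0.874, and Csf3r averaged 23.3 in WT and 21.5 in the Dock3 KO muscles. Lymphocyte genes gave 3 of 14 tested and 0 past the threshold. Their list sum was 61.7 to 70.5 in WT and 58.8 to 133 in the Dock3 KO muscles. Ms4a1 had the highest mean normalized counts, not adjusted for length, at 13.5 in WT and 21.1 in Dock3 KO. Mast cell genes gave 6 of 7 tested and 0 past the threshold. Mcpt4, a mast cell protease, averaged 141 and 121, and Hdc, the histamine-forming enzyme, was listed at 81.7 in Dock3 KO replicate 2 and at 3.03 to 14.3 elsewhere. Dendritic cell genes gave 4 of 8 tested, with 0 past the threshold, 3 differences above 0 and 1 below. Their median was 0.80. With Dock3 KO higher, 2 of the 4 did not overlap between groups (Cd209a and Siglech), against 7.6% of all genes tested. Beside Cd209a, Siglech, a marker of plasmacytoid dendritic cells and microglia, was listed at 21.6, 20.3 and 29.2 in the WT muscles and at 62.0, 56.3 and 38.9 in the Dock3 KO muscles (limma adjusted p 0.248), and Zbtb46 averaged 239 and 191.

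Blood endothelial genes, 8 tested, had a median of -0.10, and Pecam1 averaged 1461 and 1252 (limma adjusted p 0.631). Fibro-adipogenic progenitor genes, 8 tested, had 1 past the threshold, Col15a1, a basement membrane collagen, against 0.443% of all genes called higher. Col15a1 was listed at 1021, 847 and 900.4 in the WT muscles and at 1644, 1591 and 2072 in the Dock3 KO muscles, with a log2 difference of 0.93 (standard error 0.15) and a limma adjusted p of 0.0134. It passed in 9 of 18 alternative settings, with limma adjusted p-values from 0.00507 to 0.195, and it missed the threshold without WT replicate 3 (0.0811), WT replicate 4 (0.0739) or Dock3 KO replicate 3 (0.0517), and without Dock3 KO replicates 1 and 2 together (0.095), by the same limma test. The list had 4 genes with a difference below 0 and 4 above, and a median of -0.04. None of the other 7 genes passed the threshold. Dcn, the most abundant, averaged 18572 in WT and 15521 in Dock3 KO. Cd34 (2926 and 2268) and Pi16 (1101 and 802) had lower means in Dock3 KO and did not overlap between groups. Smoc2 (3280 and 4232) and Pdgfra (1830 and 2036) had higher means in Dock3 KO and did not overlap either. That is 2 of 8 with Dock3 KO lower and, with Col15a1, 3 of 8 with it higher. The shares of all genes tested were 8.65% and 7.6%. Myofibre genes, 10 tested, had a median of 0.05, with Myh4 at 395893 and 451392 and Mb at 26700 and 36024 on average.

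**Figure D4:**
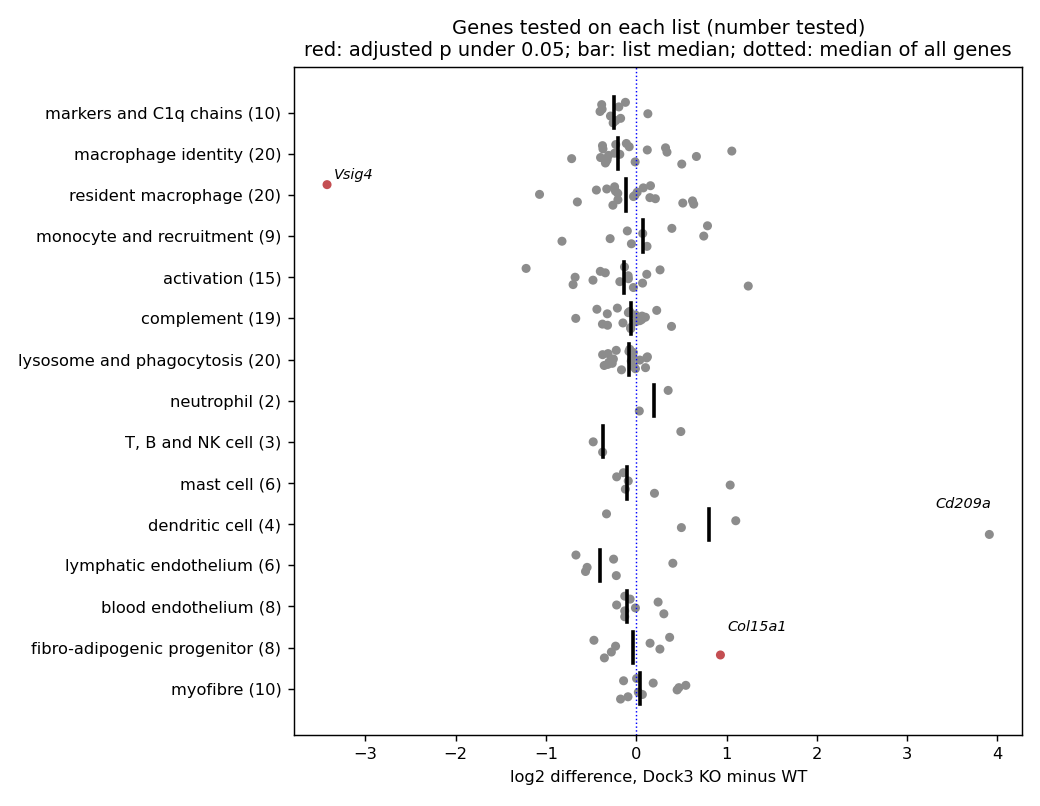
Log2 difference (Dock3 KO minus WT, horizontal axis) of each gene tested, by list, with the number tested in brackets, the list median as a black bar and the median of all genes tested as a dotted line. Red points have a limma adjusted p under 0.05, and among 160 genes shown these are Vsig4, lower, and Col15a1, higher.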

How the data were processed

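Per the labels' protocols, the RNA of 6 TA muscles went through RiboMinus depletion and a strand-specific Agilent kit, and was read from both ends on a HiSeq2500. What the authors deposited is a table of normalized counts, a signal per gene with values that are not whole and with no fixed sum. The submitters' processing notes name FastQC, Trim Galore 0.4.5, Salmon 0.12.0, DESeq2 1.22.1 and R 3.5.3 with mm10 and GRCm38, but no step, annotation or strand setting. Such a normalization makes a fold change depend on the sample's factor. All 54393 identifiers were found in GENCODE M21 (GRCm38), from which symbols, positions and exonic lengths were taken. Depth was estimated from low values, at approximately 21700000 to 32500000 reads per sample, so no counting interval is given.

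Values were converted to log2(normalized count + 1), and the 16031 genes with a mean of at least 10 entered a single limma model of the 6 samples (limma 3.58.1, R 4.3.3, moderated variances with a trend on expression), with Benjamini-Hochberg adjustment over all of them. Intervals are 95% limma intervals. The fit was tested on simulated data of 16031 genes, where it called all 200 genes given a change and 7 unchanged ones. Those changes were far larger than the differences of the 10 genes, so the check does not cover changes of that size. Single ratios used exact two-sided permutation tests (scipy 1.17.1, Python 3.11.15). Near-identical copies were searched with blastn 2.17.0 among GENCODE M21 transcripts, keeping matches of 95% identity or more that covered 100 bases or more and 50% or more of the shorter transcript. Promoter sequences are from RefSeq (GRCm38.p6), coding sequences from GENCODE M21.

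The 10 genes and the 14 other lists, holding 188 genes, were chosen with earlier results of these data known. Named genes are the 10, Dock3, the genes closest to the C1q profile and, from each list, the gene with the highest mean, the called gene with the smallest p in each direction or, with none called, the gene with the smallest p. Other genes, among them Lyz1, the remaining Cd209 genes, Cybb, Fcer1g, Cbr2, F13a1, Lgmn, C3, C1ra, C1s1, Cfp, C3ar1, Ccr2, Csf1, Il34, Ccl2, Siglech, Pdpn, Cd34, Pi16, Smoc2 and Pdgfra, were named after their values were seen. The alternatives were other pseudocounts, filters, scalings and prior variances, a replicate block, a covariate and left-out samples, with the summed Lyz1 and Lyz2 added after seeing the data. Replicate numbers are from the sample titles. A gene that the rule names is not reported here.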

Additional observations from a re-analysis of the deposited data

How the results depend on the processing

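In all 19 alternative settings 0 of the 10 genes passed the limma adjusted threshold, and the lowest adjusted p of any was 0.093 (limma). Of 190 estimates for them, 173 were below 0. Cd163 changed sign to -0.15 when samples were rescaled to the same total, which moved the median of all genes to -0.28, and ranged from -0.0086 to 0.30 over the fits that left out 1 sample. The main count of 165 genes over the whole table was 104 with a prior variance without trend, 57 with log2 Gm42418 as a covariate and 49 without Dock3 KO replicates 1 and 2 together, and 98 to 159 when 1 sample was left out (98 when WT replicate 4 and 100 when Dock3 KO replicate 2 was omitted). The count of genes called on the other lists, 2, was 1 with a mean of at least 50, with the same total without Gm42418 and Lars2 or without a variance trend, 0 with the covariate or without both libraries, and 0 to 3 with 1 sample left out. With the replicate block, 0 of the 10 genes, 0 genes of the other lists and 127 genes overall passed. In that fit the limma adjusted p was 0.136 for Vsig4, 0.0839 for Col15a1, 0.132 for Lyz1 and 0.0519 for Cd209b. Only a Dock3 KO sample has the number 2, and only a WT sample has the number 4. The genotype difference in the block fit therefore rests on samples 1 and 3 of each group. Same-numbered samples are not paired by any label, and the deviations of the shared numbers 1 and 3 from their group means correlated at 0.065 and 0.0066 across 16031 genes.

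Other changes of sign concern genes that passed in neither setting. With the same total, they were Cd9 at -0.21, Lrp1 at -0.049, Csf3r at -0.22 and Myh4 at -0.088, and with Gm42418 and Lars2 left out of that total Cd9 at -0.033 and Csf3r at -0.062. With the covariate they were Gas6 at 0.052, Cd9 at -0.080, Cxcr2 at -0.11, Hdc at -0.81, Zbtb46 at 0.023 and Myh4 at -0.033, and with the replicate block Gas6 at 0.069, Hdc at -0.62 and Myh4 at -0.046. Without both libraries they were Gas6 at 0.032, Cd9 at -0.084, Cxcr2 at -0.099 and Hdc at -0.49. A pseudocount of 10 gave Csf3r at -0.012 and quantile normalization Myh4 at -0.0040. When 1 sample was left out, values ran from -0.076 to 0.069 for Gas6, -0.048 to 0.15 for Cd9, -0.48 to 0.36 for Csf3r, -0.16 to 1.81 for Hdc and -1.42 to 0.19 for Reln, and the difference in Lyve1 per Mrc1 from -0.047 to 0.049. The causes were not tested.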
